A study of Arabidopsis thaliana with 18 samples.

Results

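Whole plants of the Arabidopsis thaliana line etr1-1 were set against the wild type Col-0 at 1 h after a spray of water, on 6 of the study's 18 Affymetrix ATH1 arrays. The members were the arrays labelled water and 1 h, 3 of Col-0 and 3 of etr1-1 (replicates 1, 2 and 3 of each), and the genotypes were paired by the replicate number in the source names. All plants were 14 days old and grown in a growth room on an MS-based medium with sucrose, and both lines are labelled as the Columbia ecotype, Col-0 for the wild type and Col for etr1-1. Of the other arrays, 6 sampled both genotypes at 1 h after GA4, a gibberellin sprayed in water, and 6 more gave 1 array per genotype at 0 h after water, at 30 min after GA4 and at 3 h after GA4. No label says that the replicates were grown or sprayed apart, and p-values here therefore describe only how much these arrays spread, part of which may be technical. In whole plants, fewer cells of a type and less RNA per cell cannot be told apart.

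Ethylene is a gaseous hormone of plants that is bound by a small family of receptors in the endoplasmic reticulum, of which ETR1 is one. Without ethylene the receptors hold the pathway off, and binding of ethylene releases EIN2 and the EIN3 group of transcription factors, which switch on the hormone's target genes. The etr1-1 allele alters the ethylene-binding part of ETR1 so that the receptor keeps signalling, and because it is dominant the plants are insensitive to ethylene. The plants were not given ethylene here, so the comparison addresses the standing difference between the genotypes after a mock spray.

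Each probe set has a linear intensity per array as deposited, given here in units, and the arrays had been scaled to 1 trimmed mean of 100.0 units on each of the 6 arrays. Differences are log2(intensity + 16) in etr1-1 minus Col-0, so a fold computed from one is a ratio of values with 16 units added and understates the change of dim genes. Correlations of log2 values between arrays were 0.967 to 0.979 within Col-0, 0.961 to 0.972 within etr1-1 and 0.954 to 0.981 across genotypes, so no array stood apart by genotype on this measure. The titles begin with DV001 for replicate 3 of each group and with DV002 for replicates 1 and 2, and these lots are treated as batches, a word the labels do not use. The title of Col-0 replicate 3 carries the word repeat and that of etr1-1 replicate 3 does not. The ethylene receptor gene ETR1 is not analysed here, and since etr1-1 is a point mutation its level would not have checked the labels. The green tissue markers RCA and LHCB4.1 were bright in all 6 arrays, at 2464.2 to 3330.5 and 2925.4 to 3671.1 units, while markers of flowers and seeds were not tested with a name.

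Of 15922 probe sets tested, 225 (1.41%) passed at an adjusted p of 0.05 in limma with the replicate number as a block, 77 higher in etr1-1 (0.484%) and 148 lower (0.93%). Without the replicate block 37 passed (0.232%), 8 higher and 29 lower, and all 37 were among the 225. Of the 225, 112 named 1 gene (42 higher and 70 lower), 5 named several and 108 were not listed in the platform table and have no name here. The log2 difference was above 1 for 22 probe sets and below -1 for 27, with medians of 0.74 over the higher and -0.67 over the lower calls, beside 0.02 over all tested probe sets. The count rested on all 6 arrays. It was 105, 103 and 90 without Col-0 replicate 1, 2 and 3, and 138, 167 and 109 without etr1-1 replicate 1, 2 and 3.

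**Figure D1:**
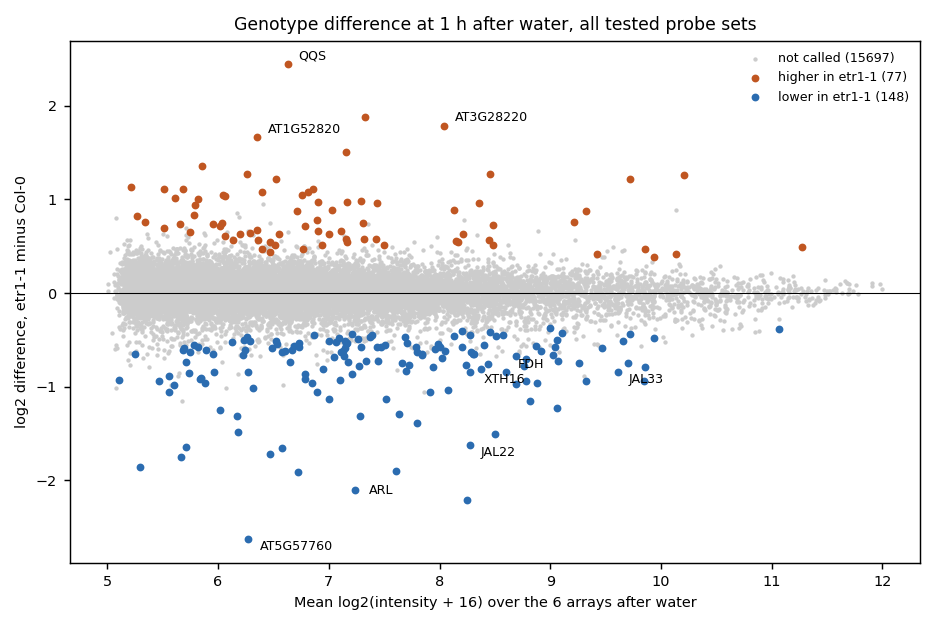
Genotype difference at 1 h after water for all tested probe sets. The x axis is the mean log2(intensity + 16) over the 6 arrays, the y axis the log2 difference (etr1-1 minus Col-0), and each point is a probe set, coloured for the 77 higher and 148 lower calls. Called probe sets lie at all intensities, and the most distant named points are QQS at 2.44 and AT5G57760 at -2.63.

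The largest rise among named genes was in QQS, an orphan gene of Arabidopsis that lowers leaf starch. QQS had intensities of 32.2, 25.4 and 22.3 units in Col-0 replicates 1, 2 and 3 and of 133.4, 325.9 and 224.4 units in etr1-1. The groups did not overlap, and the lowest etr1-1 array was far above the highest Col-0 array. The log2 difference of QQS was 2.44 ± 0.22 (SE, adjusted p = 3.22e-05), with 1.63, 3.05 and 2.65 in the 3 pairs. QQS is dim in Col-0, so its 5.44-fold difference on the offset scale depends on the 16 units added.

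A pair of genes near each other on chromosome 1, AT1G52820 and AT1G52800, were both higher in etr1-1, and both are known here by locus only. AT1G52820 had 40.2, 25.4 and 25.6 units in Col-0 and 174.8, 140.6 and 86.8 units in etr1-1. Its log2 difference was 1.66 ± 0.14 (SE, adjusted p = 1.36e-05), and no etr1-1 array reached down to the Col-0 values. AT1G52800, which lies 2 gene positions away, had 24.9, 20.0 and 4.4 units in Col-0 and 63.5, 49.3 and 42.4 units in etr1-1 (1.11 ± 0.17, SE, adjusted p = 0.00326), again without overlap. Without the replicate block AT1G52800 missed the threshold (adjusted p = 0.0548).

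PDF1.4, a small cysteine-rich protein of the plant defensin family, was also among the 12 largest rises. PDF1.4 had 19.2, 36.0 and 18.8 units in Col-0 and 66.1, 72.9 and 54.2 units in etr1-1, with no overlap. Its log2 difference was 1.00 ± 0.12 (SE, adjusted p = 5.90e-04, and 0.108 without the block). The other 5 defensin genes tested did not pass. PDF2.1 had a difference of 0.44 (adjusted p = 0.274), PDF2.5 had -0.44 (adjusted p = 0.122) and PDF1.2b, a defensin gene known as a marker of ethylene and jasmonate response, had -0.16 (adjusted p = 0.865). The probe set of PDF1.2b is of a type that can bind related transcripts. Over the 6 genes the median was -0.17, with 1 higher call and none lower, where 0.484% of all tested probe sets were higher.

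The other 8 of the 12 largest rises are known here by locus only, and several had Col-0 arrays that differed widely. AT3G28220 had 138.2, 241.7 and 55.3 units in Col-0 and 529.0, 523.9 and 377.8 units in etr1-1 (1.78 ± 0.36, SE, adjusted p = 0.0241). AT1G65500 had 43.6, 141.3 and 48.9 units in Col-0 and 215.0, 319.5 and 165.0 units in etr1-1 (1.51 ± 0.17, SE, adjusted p = 2.24e-04). AT5G03350 had 236.2, 207.5 and 191.1 units in Col-0 and 619.1, 595.8 and 402.5 units in etr1-1 (1.27 ± 0.17, SE, adjusted p = 0.00183). The groups did not overlap for these 3 genes, although replicate 2 of Col-0 was well above the other Col-0 arrays for AT3G28220 and AT1G65500. AT1G70880 (1.28), AT1G52000 (1.11), AT5G62130 (1.05) and AT4G26790 (1.05) also rose with no overlap, all as log2 differences. AT2G43620 (1.08 ± 0.18, SE, adjusted p = 0.00678) was the 1 gene of the 12 whose groups overlapped: it had 52.1, 135.2 and 29.2 units in Col-0 and 102.2, 302.2 and 99.8 units in etr1-1. Each etr1-1 array of AT2G43620 was nevertheless above its own Col-0 partner. Without the block 3 of the 12 rises passed, QQS, AT1G52820 and AT5G62130, and the adjusted p of the other 9 lay between 0.0548 for AT1G52800 and 0.889 for AT2G43620. The calls of AT3G28220 and AT1G52000 were lost without any 1 of Col-0 replicates 1, 2 and 3 or etr1-1 replicates 1 and 3 (adjusted p from 0.0753 to 0.139 and from 0.0576 to 0.0921). That of AT1G70880 was lost without Col-0 replicate 2 or 3 or etr1-1 replicate 1 (0.0733 to 0.102), that of AT4G26790 without replicate 3 of either genotype (0.0679 and 0.0843) and that of AT2G43620 without Col-0 replicate 3 (0.0629).

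The largest fall was in AT5G57760, at 172.2, 153.0 and 207.7 units in Col-0 and 16.2, 13.5 and 15.8 units in etr1-1. All 3 etr1-1 arrays were near the bottom of the scale and close to each other, while the Col-0 arrays were at a middling level. The log2 difference of AT5G57760 was -2.63 ± 0.21 (SE, adjusted p = 1.36e-05). Its size depends on the offset, since the gene was dim in etr1-1.

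ARL, the ARGOS-like gene, promotes organ growth through cell expansion, and its family is known to be raised by ethylene and to lower ethylene sensitivity. ARL had 281.7, 416.7 and 222.1 units in Col-0 and 58.5, 54.6 and 57.6 units in etr1-1. The etr1-1 arrays were within a few units of each other and the groups did not overlap. Its log2 difference was -2.10 ± 0.15 (SE, adjusted p = 5.14e-06), or 4.29-fold on the offset scale. ARL was the 1 member of its family tested with a name.

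JAL22, of the jacalin-related lectins, which bind carbohydrates, had the smallest adjusted p of the named genes. JAL22 had 555.9, 552.6 and 476.4 units in Col-0 and 166.2, 155.2 and 158.3 units in etr1-1, so that both groups were tight and far apart (-1.63 ± 0.09, SE, adjusted p = 6.56e-07). JAL33, of the same family, had 984.3, 1051.9 and 1062.3 units in Col-0 and 682.8, 523.2 and 512.6 units in etr1-1 (-0.84 ± 0.12, SE, adjusted p = 0.00248), also without overlap. JAL33 missed the threshold in the DV002 lot alone, which is the same fit as leaving out replicate 3 (adjusted p = 0.0890). JAL34 (-0.29, adjusted p = 0.191) and JAL23 (0.42, adjusted p = 0.225) did not pass. Over these 4 genes 2 were lower and none higher, where 0.93% of all tested probe sets were lower, and the median was -0.57 beside 0.02. The 4 are the members tested with a name from a list of 15 genes, so they do not stand for the whole family. Called genes known by locus only were not counted here, whatever their family.

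**Figure D2:**
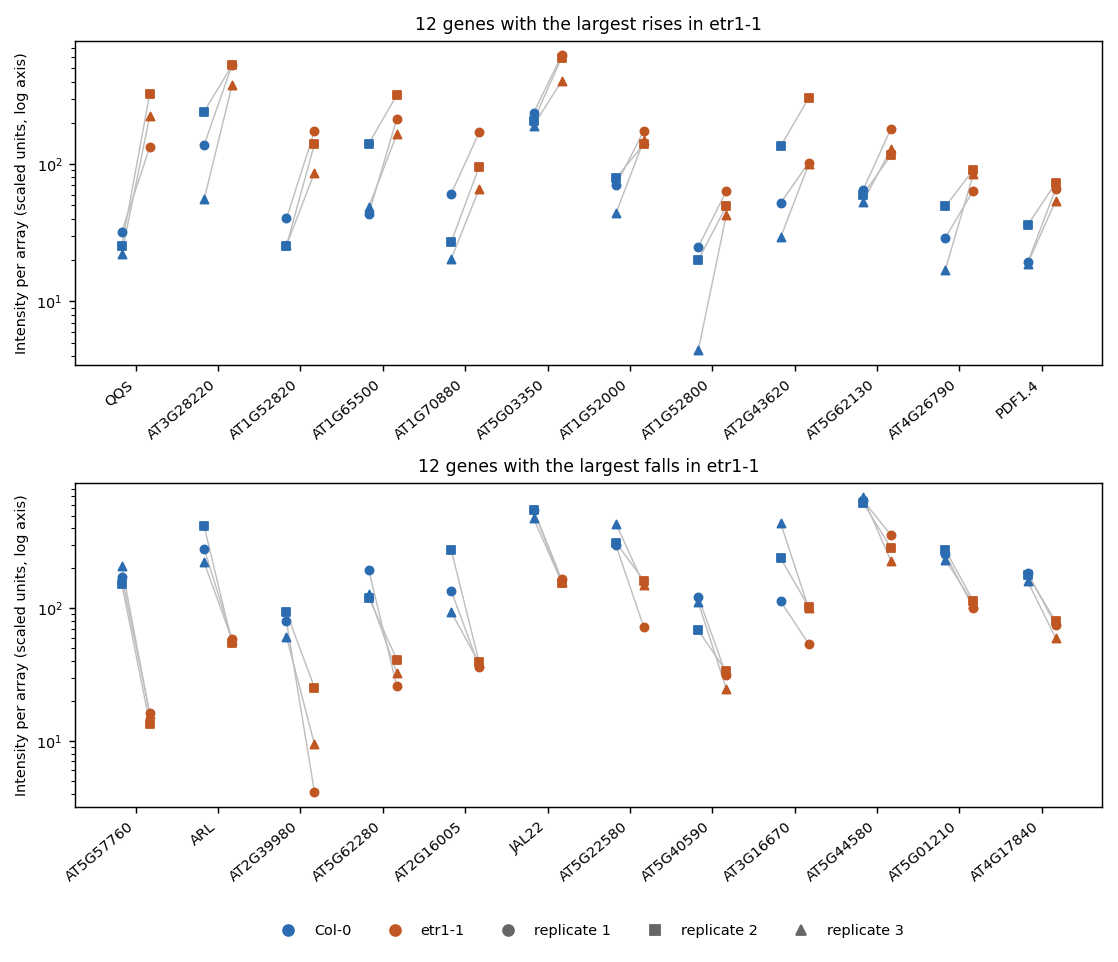
Intensity of the 12 genes with the largest rises (top) and the 12 with the largest falls (bottom) on each of the 6 arrays, on a log axis in scaled units. Blue marks are Col-0, orange marks etr1-1, the shape gives the replicate number and grey lines join pairs. The groups overlap for AT2G43620 and for none of the other 23 genes, and AT5G57760 and ARL show etr1-1 values close together far below Col-0.

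The other 9 of the 12 largest falls are known here by locus only, and none had overlapping groups. AT2G39980 had 79.7, 93.2 and 60.9 units in Col-0 and 4.1, 25.2 and 9.4 units in etr1-1 (-1.75 ± 0.22, SE, adjusted p = 7.34e-04), which put etr1-1 at the bottom of the scale. AT5G62280 had 193.1, 120.3 and 128.1 units in Col-0 and 25.8, 41.0 and 32.7 units in etr1-1 (-1.72 ± 0.18, SE, adjusted p = 1.56e-04). AT2G16005 had 135.3, 276.1 and 93.8 units in Col-0 and 36.2, 39.0 and 38.5 units in etr1-1 (-1.65 ± 0.24, SE, adjusted p = 0.00248). For AT2G16005 the Col-0 arrays were widely spread and the etr1-1 arrays lay within a few units of each other. AT3G16670 was also widely spread in Col-0, at 112.6, 238.4 and 437.6 units, against 54.0, 102.8 and 100.4 units in etr1-1 (-1.31 ± 0.28, SE, adjusted p = 0.0327). AT5G44580 was brighter, at 653.5, 627.8 and 687.5 units in Col-0 and 356.0, 285.3 and 228.2 units in etr1-1 (-1.16 ± 0.13, SE). AT5G22580 (-1.39), AT5G40590 (-1.32), AT5G01210 (-1.13) and AT4G17840 (-1.13) complete the 12. Without the block 10 of the 12 falls passed, and AT2G16005 (adjusted p = 0.121) and AT3G16670 (adjusted p = 0.641) did not. The call of AT3G16670 was also lost without Col-0 replicate 2 or 3 or etr1-1 replicate 1 or 3 (adjusted p from 0.103 to 0.191), and in DV002 alone (0.109). That of AT5G40590 was lost without Col-0 replicate 1 (0.0546) or etr1-1 replicate 3 (0.0509), and in DV002 alone (0.101).

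**Figure D3:**
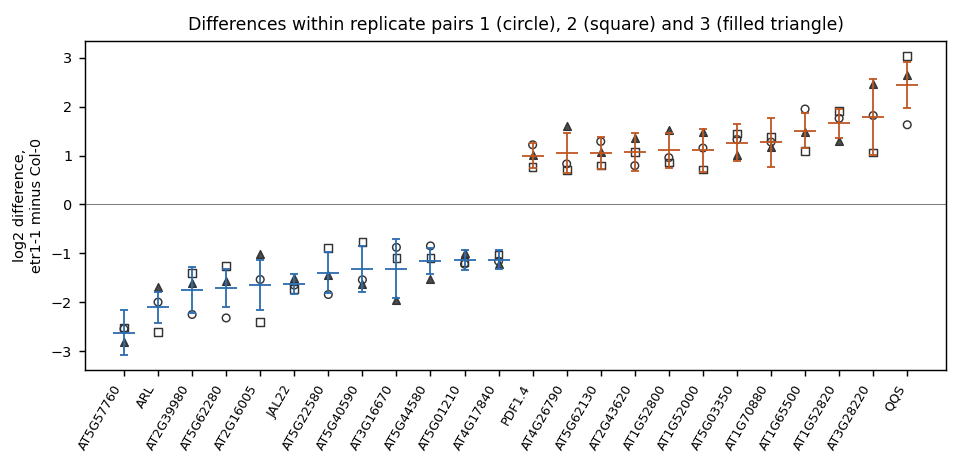
Log2 difference (etr1-1 minus Col-0) within each of the 3 replicate pairs for the same 24 genes, ordered by their mean. Open circles, open squares and filled triangles are pairs 1, 2 and 3, horizontal bars are the fitted difference and vertical bars its 95% interval. By the rule that chose the genes, all 3 pairs of each have 1 sign, and wide gaps between pairs are seen for AT2G16005, QQS and AT3G28220.

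Each of the 225 called probe sets had 1 sign of difference in all 3 pairs, beside 31.6% over all tested probe sets. The groups did not overlap for 182 of the 225, against 9.87% of all tested probe sets, and overlapped for 43. Both counts follow in part from the calling, which used these same arrays and pairs, and are no separate support. The Col-0 arrays spread more for the 43: the median range over the Col-0 arrays was 0.88 (log2) for them, 0.38 for the 182 and 0.30 for all tested probe sets. The pairs contributed unevenly, since the largest of the 3 differences came from pair 1 for 80 called probe sets, from pair 2 for 52 and from pair 3, the DV001 pair, for 93. The medians of the higher calls were 0.79, 0.69 and 0.82 in pairs 1, 2 and 3, and those of the lower calls were -0.68, -0.67 and -0.75. Within DV002 alone, which holds pairs 1 and 2, 74 probe sets passed, and 19 of the 24 genes with the largest differences were among those past the threshold. At 1 h after water DV001 holds 1 pair and gives no test.

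Of the pathway of the mutated receptor itself, the 3 genes tested with a name did not pass, where 1.41% of all tested probe sets did. RTE1, a membrane protein that promotes signalling by ETR1, had 72.1, 69.1 and 72.0 units in Col-0 and 64, 51.6 and 47.2 units in etr1-1. The groups of RTE1 did not overlap, but the log2 difference of -0.32 ± 0.12 (SE) had an adjusted p of 0.309. EIN3, the transcription factor at the end of the pathway, had a difference of 0.06 (95% interval -0.19 to 0.31). ETP2, an F-box protein that targets EIN2 for breakdown, had -0.0017 (95% interval -0.27 to 0.27). Of the 3 ethylene-induced genes tested, ARL was lower, where 0.93% of all tested probe sets were, and RTE1 and PDF1.2b did not pass.

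Of 4 genes of gibberellin perception none passed, where 1.41% of all tested probe sets did, and their differences were small. The receptors GID1A, GID1B and GID1C had log2 differences of 0.18, 0.05 and -0.10, and SLY1, an F-box protein that marks DELLA repressors for breakdown, had 0.13. In the GASA family, small peptides many of which respond to gibberellin, none of 4 genes passed, beside the same 1.41%. The closest was AT2G14900, at 173.2, 181.8 and 187.8 units in Col-0 and 264.7, 260.9 and 236.9 units in etr1-1. Its groups did not overlap and its difference was 0.46 ± 0.11 (SE), with an adjusted p of 0.0549.

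Of 7 XTH genes, enzymes that cut and rejoin xyloglucan chains of the wall, 2 were lower in etr1-1 and none higher, where 0.93% of all tested probe sets were lower. All 7 differences were negative, as were 44.9% over all tested probe sets, and the median was -0.15 beside 0.02. XTH16 had 372.8, 410.5 and 417.2 units in Col-0 and 188.9, 270.8 and 194.9 units in etr1-1, with no overlap (-0.85 ± 0.13, SE, adjusted p = 0.00497, and 0.0678 without the block). XTH33 had 124.9, 127.1 and 91.6 units in Col-0 and 66.9, 95.8 and 34.2 units in etr1-1, so that etr1-1 replicate 2 lay above Col-0 replicate 3 (-0.74 ± 0.17, SE, adjusted p = 0.0409). The call of XTH33 was lost without any 1 of Col-0 replicates 1, 2 and 3 or etr1-1 replicates 1 and 3 (adjusted p from 0.0655 to 0.216) and without the block (0.799). XTH19 (-0.24, adjusted p = 0.779) and XTH20 (-0.15, adjusted p = 0.759) did not pass.

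Of 15 expansins, proteins that loosen walls, 1 was lower, where 0.93% of all tested probe sets were. Negative differences were found for 13 of the 15, beside 44.9% of all tested probe sets, and the median was again -0.15. EXPA8 had 108.1, 58.8 and 134.2 units in Col-0 and 63.8, 33.0 and 99.7 units in etr1-1. The groups of EXPA8 overlapped, and the difference appeared within pairs (-0.64, -0.61 and -0.38). The fitted difference was -0.54 ± 0.12 (SE, adjusted p = 0.0348), the call was lost whichever of the 6 arrays was left out (adjusted p from 0.0805 to 0.238), and the adjusted p without the block was 1.00. EXPA4 (-0.26) and EXLA2 (-0.55, adjusted p = 0.217) did not pass. EXLA2 varied far more between replicates than between genotypes, with 87.2, 261.7 and 48.4 units in Col-0 and 50.7, 226.7 and 20.3 units in etr1-1.

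**Figure D4:**
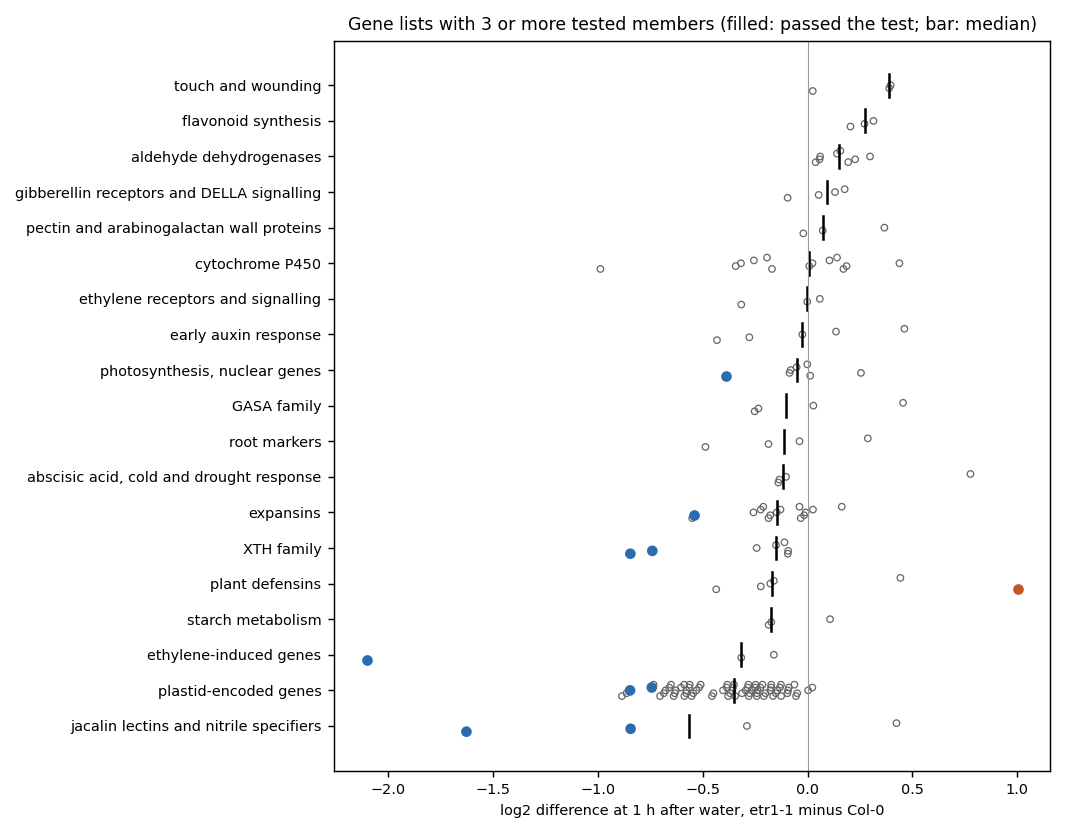
Log2 difference (etr1-1 minus Col-0) at 1 h after water for the members of each gene list with 3 or more tested named members. Each circle is a probe set, filled where it passed (blue lower, orange higher), and the black bar is the list's median. The lists of jacalin lectins, plastid-encoded genes and ethylene-induced genes have the lowest medians, and 2 of the 4 tested members of the jacalin list are filled.

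The tested members of the lists of auxin, abscisic acid, touch and flavonoid genes gave no calls, where 1.41% of all tested probe sets passed. None of 5 early auxin genes passed, although GH3.17, which conjugates auxin to glutamate, had 71.7, 51.2 and 78.7 units in Col-0 and 110.7, 86.0 and 96.8 units in etr1-1 without overlap (0.46 ± 0.11, SE, adjusted p = 0.0648). None of 4 genes of the abscisic acid, cold and drought list passed. COR15A, which protects chloroplast membranes in the cold, had 329.9, 512.3 and 49.3 units in Col-0 and 297.7, 936.0 and 184.9 units in etr1-1, with pair differences of -0.14, 0.85 and 1.62 (0.78, adjusted p = 0.238). None of 3 touch and wounding genes passed, with CML38, a calmodulin-like gene, at 0.40 and WRKY53, a transcription factor of leaf senescence, at 0.39. The pairs of CML38 gave -0.20, 0.52 and 0.87, and without etr1-1 replicate 1 it stood at 0.72 and passed (adjusted p = 0.0146). None of 3 flavonoid genes passed, with DFR, an enzyme of anthocyanin synthesis, at 0.31 and the glucosyltransferase gene UGT78D2 at 0.27.

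Among metabolic genes, none of 3 starch genes passed beside the rise of QQS: SBE2.2, a starch branching enzyme, had -0.17, PWD (AT5G26570), which phosphorylates starch, had -0.19 and DPE1, which rearranges starch fragments, had 0.11. A second locus listed under the symbol PWD, AT4G24450, was outside the starch list and had 0.11. All 8 aldehyde dehydrogenase genes had positive differences, where 55.1% of all tested probe sets were not negative, with a median of 0.15 beside 0.02 and no call, led by ALDH10A8 (0.30, adjusted p = 0.171) and ALDH2C4 (0.23, adjusted p = 0.316). None of 13 cytochrome P450 genes passed, where 1.41% of all tested probe sets did. CYP71B22 came closest, at 40.2, 41.5 and 77.7 units in Col-0 and 20.2, 17.1 and 16.4 units in etr1-1 with no overlap (-0.99 ± 0.24, SE, adjusted p = 0.0673). CYP71B22 passed when the 6 arrays after water were fitted alone (0.0289) and after quantile normalization (0.0483). In that fit of 6 arrays CYP71B22 was the only 1 of the 91 probe sets named in the text to gain a call, and 8 lost theirs, among them EXPA8 (0.0587) and LHCB4.2 (0.103). None of 3 pectin methylesterase genes of the pectin and arabinogalactan list passed (median 0.07). The lists of glucosinolate synthesis, the circadian clock and senescence had 1 tested member each and no call.

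Of 7 nuclear genes of photosynthesis, 1 was lower, where 0.93% of all tested probe sets were. LHCB4.2, a light-harvesting protein of photosystem II, had 2432.6, 2132.2 and 2769.9 units in Col-0 and 1777.9, 1698.4 and 2112.6 units in etr1-1 (-0.39 ± 0.08, SE, adjusted p = 0.0286). Its groups did not overlap, but its call was lost whichever of the 6 arrays was left out (adjusted p from 0.0555 to 0.147) and without the block (0.703). LHCB4.1, a close relative, had a difference of -0.0014, and RCA, the activase of Rubisco, had -0.04. Root markers, 2 of which are also expansins, stood at a median of -0.11 with none of 4 passing. The summed intensity of the root markers was 343.1 to 431.9 units in Col-0 and 315.6 to 411.2 units in etr1-1, and that of the green markers RCA and LHCB4.1 was 5418.4 to 7001.6 and 5689.1 to 6121.8 units.

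Transcripts encoded in the plastid, a set looked at after its values were seen, were shifted to the lower side. Of 69 probe sets, 67 had negative differences, beside 44.9% of all tested probe sets, and the median was -0.35 beside 0.02. Of the 69, 2 passed, where 1.41% of all tested probe sets did. psbE, a subunit of cytochrome b559 of photosystem II, had 1007.3, 651.9 and 711.4 units in Col-0 and 504.1, 445.3 and 426.1 units in etr1-1 (-0.74 ± 0.13, SE, adjusted p = 0.0115). psbN, needed to assemble photosystem II, had 56.1, 43.1 and 121.8 units in Col-0 and 22.3, 28.7 and 43.0 units in etr1-1 (-0.85 ± 0.14, SE, adjusted p = 0.00711). Neither gene overlapped between the groups. Both calls were lost without the block (adjusted p = 0.329 and 0.853). That of psbE was also lost without Col-0 replicate 1 or 3 or etr1-1 replicate 1 (adjusted p from 0.0616 to 0.0885), and that of psbN without replicate 3 of Col-0 (0.0668) or of etr1-1 (0.0508). The shift was uneven between pairs, with medians of -0.64, -0.02 and -0.45 in pairs 1, 2 and 3. The log2 ratio of the 3' to the 5' control probe sets of actin, a sign of RNA quality, was 0.94, 1.10 and 0.94 in Col-0 and 0.77, 1.48 and 0.89 in etr1-1, so that it was higher in etr1-1 in pair 2 and lower in pairs 1 and 3. The other control genes ran otherwise. For GAPDH the ratio was 0.16, 0.18 and 0.06 in Col-0 and 0.10, 0.29 and 0.17 in etr1-1, so that it was lower in etr1-1 in pair 1 and higher in pairs 2 and 3. For ubiquitin it was 0.76, 0.90 and 0.87 in Col-0 and 0.94, 1.13 and 0.76 in etr1-1, higher in pairs 1 and 2 and lower in pair 3. The part of these ratios in the plastid result was not tested.

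Further called genes with a symbol lie outside the lists and were picked after their values were seen. Prx37, a class III peroxidase, had 81.3, 114.1 and 99.4 units in Col-0 and 36.1, 41.7 and 43.0 units in etr1-1 (-1.01 ± 0.17, SE, adjusted p = 0.00618). FDH, the mitochondrial formate dehydrogenase, had 410.8, 563.7 and 555.1 units in Col-0 and 315.3, 283.5 and 231.0 units in etr1-1 (-0.84 ± 0.13, SE, adjusted p = 0.00492). Neither overlapped between genotypes, and FDH missed the threshold in DV002 alone (adjusted p = 0.128). bZIP44, a transcription factor, had 99.5, 103.3 and 112.0 units in Col-0 and 64.9, 66.5 and 56.4 units in etr1-1 (-0.62 ± 0.10, SE, adjusted p = 0.00746). SCPL34, a serine carboxypeptidase-like protein, fell by 0.63, UBC29, a ubiquitin-conjugating enzyme, by 0.45, GME, which makes a precursor of vitamin C, by 0.42, and DRT100 by 0.55 on the log2 scale. DRT100 alone of these 7 had overlapping groups. On the higher side, GRX480, a glutaredoxin that binds TGA transcription factors, had 37.4, 77.0 and 38.2 units in Col-0 and 79.0, 102.1 and 80.9 units in etr1-1 (0.67 ± 0.12, SE, adjusted p = 0.0127). The lowest etr1-1 array of GRX480 was just above the highest Col-0 array. Without the block bZIP44 (adjusted p = 0.0461) and Prx37 (0.0411) passed, while SCPL34 (0.0648), GME (0.443), GRX480 (0.526), UBC29 (0.558) and DRT100 (0.778) did not, and FDH fell just short of the threshold. The calls of UBC29 and GME were lost whichever of the 6 arrays was left out (adjusted p from 0.0690 to 0.160 and from 0.0593 to 0.149). GRX480 and DRT100 lost theirs without replicate 1 or 3 of either genotype (0.0614 to 0.0959 and 0.0509 to 0.139). SCPL34 lost its call without Col-0 replicate 1 or 3 or etr1-1 replicate 2 (0.0518 to 0.0970), bZIP44 without Col-0 replicate 3 (0.0685) and Prx37 without Col-0 replicate 2 (0.0562).

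Called genes were spread over the 5 chromosomes at 26 of 2256 named probe sets on chromosome 1, 21 of 1306 on chromosome 2, 20 of 1764 on chromosome 3, 16 of 1273 on chromosome 4 and 26 of 2066 on chromosome 5. On chromosome 1, 16 of the 26 were higher in etr1-1, while on chromosomes 4 and 5 only 2 of 16 and 5 of 26 were, a difference that was not tested. Within 10 gene positions of each other lay 10 pairs of called genes, 7 of which moved in the same direction. Whether this is more than for other tested genes was not tested. AT1G51790 (0.44) and AT1G51820 (0.73) rose together, and AT2G15960 (-0.59) and AT2G16005 (-1.65) fell together, as did AT5G62280 (-1.72) and AT5G62360 (-0.94). The calls of AT1G51790 and AT1G51820 were lost whichever of the 6 arrays was left out (adjusted p from 0.101 to 0.243 and from 0.0753 to 0.241), and that of AT2G15960 without any 1 of 5, all but etr1-1 replicate 2 (up to 0.285). Of the 3 pairs that moved apart, AT1G52000 (1.11) lay near AT1G52100 (-1.06) and AT2G39420 (0.55) near AT2G39400 (-0.81). AT1G52100 lost its call without replicate 2 or 3 of either genotype (0.0710 to 0.106), and AT2G39420 without any 1 of 5 arrays, all but etr1-1 replicate 2 (0.0712 to 0.0987). Close to the ETR1 locus, 2 of 30 tested genes within 50 gene positions on either side were called, where 1.41% of all tested probe sets were. AT1G66100 was higher (0.87 ± 0.09, SE, adjusted p = 7.44e-05) and AT1G66180 lower (-0.67 ± 0.15, SE, adjusted p = 0.0462). Without the block neither passed (adjusted p = 0.288 and 0.391), and the call of AT1G66180 was lost without any 1 of 5 arrays (all but etr1-1 replicate 2, 0.0644 to 0.259). AT1G65500 joined them within 100 positions, where 3 of 56 were called, and whether calls gather near ETR1 was not tested. AT1G66100 had 603.9, 347.2 and 452.7 units in Col-0 and 1025.5, 672.2 and 889.6 units in etr1-1.

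On the 6 arrays at 1 h after GA4, which share no array with the comparison after water though replicate numbers link them, 299 probe sets (1.88%) differed between the genotypes, 145 higher and 154 lower in etr1-1. Of the 225 called after water, 146 passed after GA4 as well, which is 64.9% of the calls after water and 48.8% of those after GA4. Both comparisons come from 1 fit of 12 arrays and share 1 estimate of the spread per probe set. Passing in both is therefore not independent. The sign was the same for 224 of the 225, as it was for 68.3% of all tested probe sets. All 24 genes with the largest differences after water passed after GA4 in the same direction. After GA4, ARL had 211.3, 317.4 and 250.7 units in Col-0 and 44.5, 58.0 and 52.5 units in etr1-1, and AT5G57760 had 147.4, 77.7 and 239.3 units in Col-0 and 13.4, 19.7 and 16.1 units in etr1-1. Both were again separated without overlap. The medians of the probe sets called higher and lower after water were 0.68 and -0.57 after GA4, beside 0.00 over all tested probe sets.

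Whether the genotype difference itself differed between water and GA4 was tested in the same limma fit, and no probe set passed (0.0%). At an unadjusted p under 0.05 there were 335, where chance alone gives 796.1, and 18 of them were among the 225. A count so far below that of chance means that this test may be too strict and may miss real differences. The reason for the low count was not tested. The smallest p of a named gene was that of AT4G31330, where the difference was 0.46 after water and -0.51 after GA4 (difference 0.97 ± 0.19, SE, unadjusted p = 1.78e-04, adjusted p = 1.00). AT4G31330 had 26.9, 28.5 and 28.1 units in Col-0 and 38.4, 46.3 and 48.8 units in etr1-1 after water, and was not called there (adjusted p = 0.152). Among called genes, AT1G26410, whose call was lost without any 1 of 5 arrays (all but Col-0 replicate 1, adjusted p from 0.0751 to 0.199), had 0.82 after water and -0.14 after GA4, and AT2G15870 had -0.93 and -0.14. EXPA8 had -0.54 after water and -0.07 after GA4, and LHCB4.2 had -0.39 and -0.03. COR15A and DFR, not called after water, were higher in etr1-1 after GA4 (1.43, adjusted p = 0.0143, and 0.72, adjusted p = 0.0262). None of these gaps between the sprays passed the test of the difference, so none is shown to be particular to water or to GA4.

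**Figure D5:**
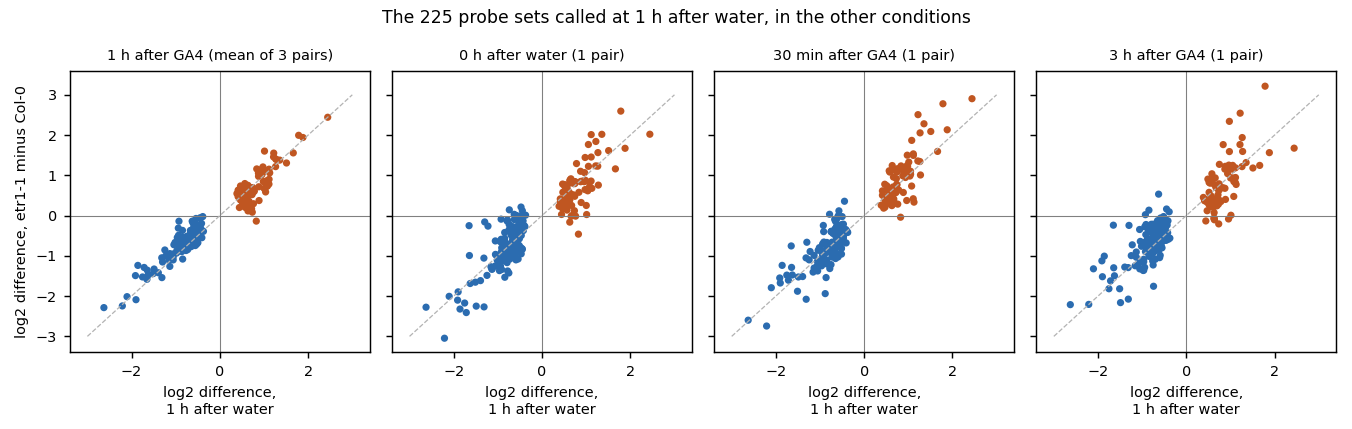
Log2 difference (etr1-1 minus Col-0) of the 225 probe sets called at 1 h after water (x axis) against the difference in 4 other conditions (y axis): 1 h after GA4 as the mean of 3 pairs, and 0 h after water, 30 min after GA4 and 3 h after GA4 with 1 array per genotype. Orange and blue points are the higher and lower calls and the dashed line is equality. The signs are the same for 224, 214, 221 and 214 of the 225 points.

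The single arrays at the other times allow a description with no test. All have titles that begin with DV001, while the means at 1 h also hold DV002 pairs, so time and lot are partly mixed. At 0 h, in plants harvested at once after the water spray, 214 of the 225 had the sign seen at 1 h (61.6% of all tested probe sets did), with medians of 0.71 for the higher and -0.70 for the lower calls. At 30 min after GA4 the sign was the same for 221 (60.8% of all), with medians of 0.77 and -0.68. At 3 h after GA4 it was the same for 214 (62.8% of all), with medians of 0.70 and -0.57. All 24 genes with the largest differences kept their sign in these 3 comparisons. QQS stood at 24.3 units in Col-0 and 147.5 in etr1-1 at 0 h, ARL at 214.6 and 41.4, AT5G57760 at 132.2 and 14.6, and JAL22 at 495.2 and 142.7. Some genes differed little at 0 h: AT2G16005 had 59.9 units in Col-0 and 47.8 in etr1-1 (log2 difference -0.25, against -1.65 at 1 h), XTH33 had 34.1 and 39.3, and PDF1.4 had 23.5 and 31.0. In pair 3, the DV001 pair at 1 h after water, the log2 differences of these genes were -1.01, -1.10 and 1.01. With 1 array per genotype, these gaps carry no error. For the plastid-encoded set the median was -0.01 at 0 h, -0.25 at 30 min after GA4, -0.49 at 1 h after GA4 and -0.44 at 3 h after GA4. Of these, only the median at 1 h after GA4 includes DV002 pairs.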

How the data were processed

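Biotin-labelled cRNA from whole plants was hybridised to ATH1 arrays. The deposited values are intensities, 1 per probe set, which the authors had scaled to a common trimmed mean (2% cut at each end), as the values show. The sources used here do not name the software. Of 22810 probe sets, 64 controls were dropped. By the platform annotation, 13513 named 1 gene, 503 several and 8730 were not listed, and 13436 matched RefSeq (TAIR10.1). Symbols and gene order come from there, and no sequence is printed.

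Probe sets with a mean log2(intensity + 16) below the 30th percentile of the 12 arrays at 1 h were left out. limma 3.58.1 (R 4.3.3) fitted 4 group terms and the replicate number as a block with an intensity trend (lmFit, eBayes), leaving 6 residual degrees of freedom, and p-values were adjusted by Benjamini-Hochberg over all 15922 probe sets. The method was tested on simulated data with replicate effects and independent spread on each array. Such data cannot show what spread shared between arrays beyond the replicate number does to the calls. The arrays were paired by the labels' replicate numbers. Deviations from group means correlated at 0.13 to 0.70 for the 18 same-numbered pairs and at -0.52 to 0.19 for the 36 others. The ranges overlap, and the contrast is no test of the pairing. Deviations cancel out within a group, so positive values for same-numbered pairs push the others down. The DV001 lot also holds a single replicate number of each group, so lot and number are partly mixed. Precision is limited by how few arrays there are. The 95% interval lay wholly within 2-fold of no difference, up or down, for 98.6% of probe sets. That share depends on the size of the difference as well as on the width of the interval.

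The members and gene lists were chosen with earlier results of these data known. Named genes were the 12 largest rises and 12 largest falls among called probe sets with 1 gene and 1 sign in all pairs, up to 6 called and 3 uncalled members of each list, and the ethylene signalling and ARGOS lists. Other genes, neighbours and the plastid set were picked after their values were seen. The 34 lists held 973 genes, of which 99 were tested with a name, in 23 lists (18 with 3 or more), so they are thin. Since 1.41% of all tested probe sets passed, a list this small without a call says little about its pathway. The alternatives were the block, the lot as a block, fewer arrays, other offsets and filters, quantile normalization, no trend and a threshold of 0.10.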

Additional observations from a re-analysis of the deposited data

How the results depend on the processing

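After water 225 probe sets passed. The count was 37 with no replicate block, 105 with the lot as a block, 74 within DV002 alone and 136 with no filter. It was 74 to 167 when a replicate pair or a single array was left out. After GA4 (299) the count was 32 with no replicate block, 135 with the lot as a block, 82 within DV002 alone, 124 with no filter and 582 at a threshold of 0.10. It was 82 to 139 when a replicate number was left out. The GA4 count was 241 to 368 when a single array after water was left out, and no single array after GA4 was left out. The cause of these changes was not tested, beyond the fewer arrays. Other offsets, quantile normalization, a stricter filter and no trend kept both counts within 1.5 times, as did fitting the 6 arrays after water or, chosen after seeing the data, the 6 after GA4 alone. The difference between sprays gave 0 in each setting tried, with 111 to 654 probe sets at an unadjusted p under 0.05.

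Of the 24 genes with the largest differences none changed sign. In the settings that tested them, 20 at most, 12 never lost their call: QQS, AT1G52820, AT5G62130, AT5G57760, ARL, AT2G39980, AT5G62280, JAL22, AT5G22580, AT5G44580, AT5G01210 and AT4G17840. The filter at the 50th percentile kept 72 of the 91 probe sets named in the text and the offset of 1 kept 89, so dim genes were not tested in each setting. Over the 91 probe sets named in the text, 38 lost their call in at least 1 setting, 4 gained one (AT2G14900, GH3.17, CML38 and CYP71B22) and 7 changed sign, none of which was called. Within DV002 alone the log2 difference was -0.052 for GID1A, -0.024 for GID1B, 0.11 for RCA and 0.13 for LHCB4.1. With arrays left out it ran from -0.10 to 0.17 for EIN3, -0.13 to 0.11 for ETP2, -0.38 to 0.11 for PDF1.2b, -0.052 to 0.37 for GID1A, -0.024 to 0.17 for GID1B, -0.18 to 0.11 for RCA and -0.083 to 0.13 for LHCB4.1. Dim genes such as AT1G52800 and AT2G39980, near 0 units on some arrays, have folds that depend on the offset, and genes of unlisted probe sets are not named.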
